A study of Homo sapiens with 6 samples.

Results

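MALAT1, NEAT1, TUG1, OIP5-AS1 and LINC00657 are long noncoding RNAs, some kept in the nucleus and some found in the cytoplasm. They were chosen by gene symbol, each symbol matched 1 row, and the 5 rows were followed among 57773 genes in the deposited table. The study measured RNA from HEK293 cells, a human embryonic kidney line in long-standing laboratory use, in 3 libraries that carry the label TRDMT1 knockdown and 3 that serve as controls by their label. All 6 libraries were made from total RNA after removal of ribosomal RNA, and per the labels' protocols the RNA was also treated with a kit for RNA bisulfite conversion. The sources used here do not say how TRDMT1, a methyltransferase of tRNA cytosines, was depleted or what the control cells received. All 5 RNAs passed the filter on low counts, as did 17805 genes in all.

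The 5 RNAs are known for different work. MALAT1 sits at nuclear speckles, the stores of splicing factors, and NEAT1 is the scaffold of paraspeckles, nuclear bodies that hold RNA-binding proteins. MALAT1 and the long form of NEAT1 end without a poly(A) tail: RNase P cuts their precursors, and a triple helix of U-rich and A-rich stretches protects the new end. The short form of NEAT1 is polyadenylated. LINC00657, also called NORAD, is mostly cytoplasmic and binds the PUMILIO proteins, which repress messages. OIP5-AS1, the human counterpart of cyrano, carries a long match to the microRNA miR-7 and is known in mice to trigger its decay. TUG1 is found in nucleus and cytoplasm and has been reported to bind Polycomb repressive complex 2.

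The sequences that set these RNAs apart were read from the GENCODE release 29 transcripts (GRCh38), as the deposited table holds none. The 3' elements of MALAT1 (chr11:65506025-65506116, plus strand, exon 1 of 1) and NEAT1 (chr11:65445449-65445540, plus strand, exon 1 of 1) are shown because mature MALAT1 and the long form of NEAT1 are known to end at them. The annotated NEAT1 transcript ends at its element, and that of MALAT1 runs on for 353 bases. Capitals mark both U-rich motifs (written with T) and the A-rich tract, and both elements spanned 92 bases.
MALAT1: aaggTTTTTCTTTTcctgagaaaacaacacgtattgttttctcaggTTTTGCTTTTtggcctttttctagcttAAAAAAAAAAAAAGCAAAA
NEAT1: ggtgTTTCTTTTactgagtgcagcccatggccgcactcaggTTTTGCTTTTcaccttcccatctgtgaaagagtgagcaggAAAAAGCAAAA

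LINC00657 is shown by its PUMILIO motifs, TGTANATA in DNA letters, searched on the transcript strand of the longest transcript of each gene. LINC00657 held 15 matches, or 2.81 per kilobase, of which 3 pairs stood with their starts 9 bases apart. NEAT1 held 6 matches, TUG1 held 2, OIP5-AS1 held 1 and MALAT1 held 0. At least 1 match stood in 29.4% of the 17302 tested genes with a transcript, and 15 or more stood in 4 of them, LINC00657 included. The 3 pairs, with the motifs in capitals, lie in its only exon on the minus strand at chr20:36049497-36049525, chr20:36048300-36048328 and chr20:36047664-36047692.
pair 1: tatctgTGTATATAgTGTACATAaaggac
pair 2: ctatacTGTATATAtTGTATATAtaacgg
pair 3: gtgctgTGTATATAgTGTATATAagcgga

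OIP5-AS1 is shown by its miR-7 site (chr15:41300574-41300599, plus strand, exon 4 of 4). Of the 5 RNAs it alone held the seed match GTCTTCC, in 3 places, against at least 1 match in 25.8% of tested genes. At position 2887 of the transcript the seed match followed a run of 14 bases complementary to the 3' part of miR-7. Both stretches are in capitals, and in the microRNA, from RefSeq (GRCh38.p14, chr9:83969811-83969834, minus strand), capitals mark the seed, bases 2 to 8.
OIP5-AS1: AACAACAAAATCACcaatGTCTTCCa
miR-7-5p: uGGAAGACuagugauuuuguuguu

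The knockdown-labelled libraries held 36455950 to 40088993 counts and the control-labelled ones 24776040 to 26802182. The targeted gene goes against the labels: 221, 225 and 245 counts of TRDMT1 stood in the knockdown-labelled libraries, against 99, 93 and 80 in the control-labelled ones (log2 fold change 0.61 ± 0.21, adjusted p = 0.0705). In the deposited table the knockdown-labelled libraries have column names with C and the control-labelled ones names with TK. Whether the groups were exchanged, which would turn every direction below, cannot be told from these files, so directions are between libraries as labelled. Control replicate 2 stood apart, with a TMM scaling factor of 0.812 against 0.997 and 1.03 in the other control-labelled libraries, so results are also given without it. Genes known from HEK293, such as NEFL and KRT18, averaged at least 1 RPKM over the 6 libraries for 9 of 9 markers. NEFH, however, had 3.18, 3.30 and 3.09 RPKM in the knockdown-labelled libraries, against 0.40, 0.28 and 0.51 in the control-labelled ones. It alone of the 9 had an adjusted p under 0.05 (log2 fold change 2.85 ± 0.19, adjusted p = 0.00034, edgeR), or 11.1%, where 24% of all genes did. Without control replicate 2, 3 of the 9 were called higher and 3 lower, where 22.9% and 25.6% of all genes were. PAX2 (0.57 ± 0.15) and LHX1 (0.41 ± 0.11) were then higher with NEFH, and NEFM (−0.87 ± 0.077), KRT8 (−0.35 ± 0.073) and VIM (−0.34 ± 0.084) lower. Markers of blood, endothelium, fibroblasts, liver and muscle averaged at least 1 RPKM for 1 of 10, COL1A1. They summed to 4.18 to 4.79 RPKM in the knockdown-labelled libraries and 1.46 to 5.62 RPKM in the control-labelled ones. PTPRC, of blood cells, stood at 0 to 0.01 RPKM, and CDH5, of endothelium, at 0. Whether each library is a culture of its own is not stated, so p-values reflect the spread among these 6 libraries only, and that spread may be technical.

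Read per exonic length, the 5 RNAs formed a high and a low set. LINC00657 stood at 52.0 ± 1.40 RPKM in the knockdown-labelled libraries and 35.4 ± 10.95 RPKM in the control-labelled ones (SD, n = 3 each). TUG1 stood at 29.2 ± 1.87 RPKM in the knockdown-labelled libraries and 34.4 ± 9.08 RPKM in the control-labelled ones. RPKM are counts scaled to exonic length and library total. The other RNAs were several-fold lower. In the knockdown-labelled libraries OIP5-AS1 stood at 7.99 ± 0.083, MALAT1 at 7.57 ± 1.36 and NEAT1 at 6.47 ± 0.41 RPKM, and in the control-labelled ones they stood at 7.57 ± 1.27, 10.5 ± 1.45 and 6.72 ± 0.52 RPKM. Among 2293 tested long noncoding genes, LINC00657 ranked 4 in the knockdown-labelled libraries and 13 in the control-labelled ones. By the same order TUG1 ranked 12 and 19, MALAT1 102 and 61, NEAT1 131 and 122, and OIP5-AS1 93 and 107. All 5 were thus in the upper part of the tested long noncoding genes, and LINC00657 and TUG1 near its top.

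**Figure D1:**
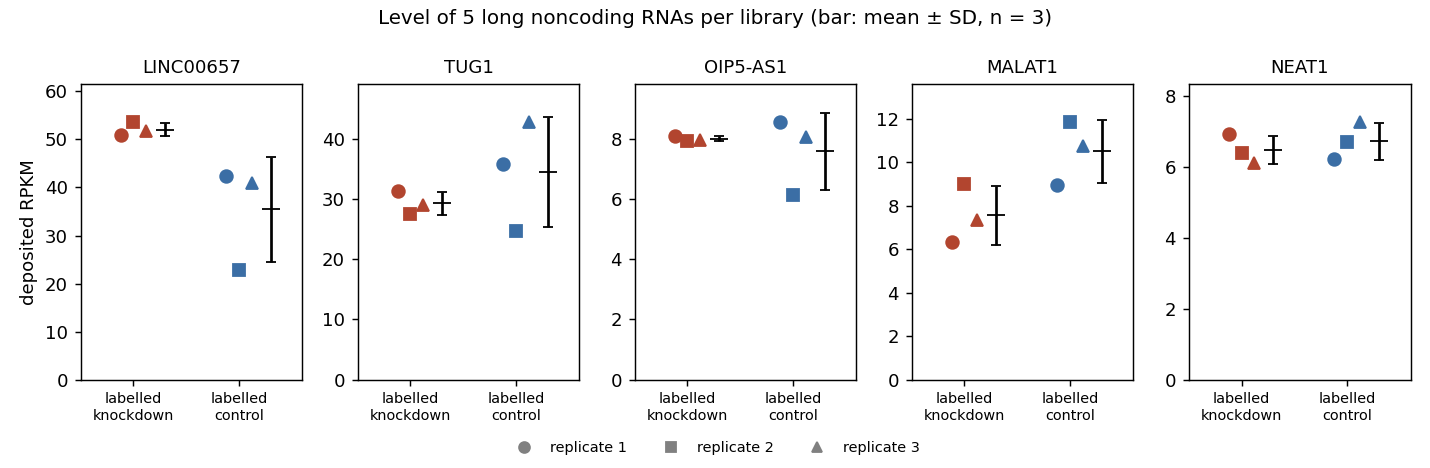
Deposited RPKM of each RNA (vertical axes from 0, scaled per RNA) in the 3 knockdown-labelled libraries (red, left) and the 3 control-labelled ones (blue, right), with replicates as symbols and the mean ± SD as a black bar. LINC00657 lay at 50.8 to 53.6 RPKM in every knockdown-labelled library and at 22.8 RPKM in control replicate 2, its lowest library.

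The order of levels differed between libraries. In all 3 knockdown-labelled libraries LINC00657 was above TUG1, with ranges of 50.8 to 53.6 and 27.5 to 31.3 RPKM. In the control-labelled libraries the ranges of 22.8 to 42.5 RPKM for LINC00657 and 24.7 to 42.7 RPKM for TUG1 overlapped, and TUG1 was the higher in control replicates 2 and 3. OIP5-AS1, MALAT1 and NEAT1 did not separate in the knockdown-labelled libraries, except that OIP5-AS1 was above NEAT1 in all 3. In the control-labelled libraries MALAT1 was above both, and OIP5-AS1 and NEAT1 overlapped. The 5 RNAs together took 0.0772% to 0.0793% of counts in the knockdown-labelled libraries and 0.0619% to 0.0864% in the control-labelled ones, the lowest in control replicate 2 (95% Wilson interval 0.0610% to 0.0629%, counting error only).

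By edgeR's quasi-likelihood test on counts, 0 of the 5 RNAs passed an adjusted p of 0.05, where 4267 of 17805 genes, or 24%, did (1654 or 9.29% higher, and 2613 or 14.7% lower). MALAT1 and TUG1 had an unadjusted p under 0.05, and DESeq2 called 1 of the 5, MALAT1, where it called 27% of genes. In these bulk libraries fewer cells that express an RNA and less of it per cell cannot be told apart. The median log2 fold change was −0.24 over the 5 and −0.04 over all genes. Scaling by the plain library total moved the median of all genes to 0.13 and the split of calls to 1888 higher and 1649 lower, and limma-trend on log2(RPKM + 1) gave 2299 higher and 1527 lower. Of the 5 RNAs, 3 had groups that did not overlap in CPM, counts scaled to library size by TMM, where 49.9% of all tested genes did so.

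MALAT1 had 52.1, 74.0 and 59.9 CPM in the knockdown-labelled libraries, against 78.6, 127.2 and 91.1 CPM in the control-labelled ones. Every knockdown-labelled library was below every control-labelled library in CPM, as for 26% of genes tested, but in RPKM the groups overlapped, with 9.03 in knockdown replicate 2 and 8.98 in control replicate 1. The log2 fold change was −0.67 ± 0.22, with a 95% interval of −1.19 to −0.16 and an adjusted p of 0.0631 (edgeR). Its level varied by 17.9% of the mean among knockdown-labelled libraries and by 25.5% among control-labelled ones, far above the counting error of 2.23% at its lowest count, so depth does not limit this value. DESeq2 called it at −0.63 (adjusted p = 0.0381), and without control replicate 2 edgeR did too, at −0.45 ± 0.14 (adjusted p = 0.0231).

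NEAT1, on the same chromosome, was measured with reads of its short and long forms in 1 value, over 22767 exonic bases. It had 148.5, 136.9 and 130.5 CPM in the knockdown-labelled libraries, against 141.9, 188.0 and 160.8 CPM in the control-labelled ones. The groups overlapped, with control replicate 2 the highest of the 6 libraries. Its log2 fold change was −0.24 ± 0.14 (95% interval −0.57 to 0.09, adjusted p = 0.245, edgeR). That interval spans folds of 0.674 to 1.07, an equal level among them. No alternative called NEAT1, over adjusted p values of 0.197 to 0.787.

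TUG1 had 200.5, 176.0 and 184.4 CPM in the knockdown-labelled libraries, against 244.7, 207.0 and 282.8 CPM in the control-labelled ones. All knockdown-labelled libraries were below all control-labelled ones in CPM, whereas in RPKM control replicate 2, at 24.7, was the lowest of the 6. A log2 fold change of −0.39 ± 0.15 (95% interval −0.74 to −0.04, adjusted p = 0.0989, edgeR) was fitted, an estimate 1.31-fold lower. Without control replicate 2 it was called, at −0.49 ± 0.087 (adjusted p = 0.00149). The adjusted p ran from 0.000229 to 0.505 over the alternatives, which all kept the lower sign.

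OIP5-AS1 had 91.7, 89.5 and 89.7 CPM in the knockdown-labelled libraries, against 103, 91.0 and 94.1 CPM in the control-labelled ones. The groups overlapped, through control replicate 2, and its level varied by 1.32% of the mean among knockdown-labelled libraries and by 6.50% among control-labelled ones in CPM, though its RPKM in the control-labelled ones ranged from 6.14 to 8.54. The log2 fold change was −0.09 ± 0.11 (95% interval −0.34 to 0.16, adjusted p = 0.569, edgeR), and it turned to 0.08 with the plain library total and to 0.18 with trends in base composition and length removed. Its messenger neighbour OIP5, a centromere protein gene on the other strand, overlaps it, and although the library kit keeps strand, the counting setting is not given, so their shared reads cannot be told apart. OIP5 stood at −0.20 ± 0.15 (adjusted p = 0.333).

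LINC00657 was the only one of the 5 with a higher estimate in the knockdown-labelled libraries. It had 256.3, 269.2 and 259.0 CPM there, against 227.7, 150.2 and 213.4 CPM in the control-labelled ones. The groups did not overlap in CPM or in RPKM, as for 23.9% and 32.2% of all tested genes in that direction, and control replicate 2 was far below the other 5 libraries. The log2 fold change was 0.41 ± 0.17 (95% interval −0.003 to 0.82, adjusted p = 0.129, edgeR), an estimate of 1.33-fold. Without control replicate 2 the difference was smaller but called, at 0.25 ± 0.075 (adjusted p = 0.0215). Over the deposited values on the log2(RPKM + 1) scale, an exact permutation test, two-sided, returned p = 0.1 for LINC00657, which is the least that 3 against 3 permits, and 0.2 for MALAT1, 0.5 for TUG1, 0.6 for NEAT1 and 0.9 for OIP5-AS1.

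The ratio of 2 RNAs within a library does not depend on how libraries are scaled. Each ratio was taken of counts per exonic base, for 10 pairs. The MALAT1 to LINC00657 ratio was 0.125, 0.169 and 0.142 in the knockdown-labelled libraries, against 0.212, 0.519 and 0.262 in the control-labelled ones. The TUG1 to LINC00657 ratio was 0.615, 0.514 and 0.560 in the knockdown-labelled libraries, against 0.844, 1.08 and 1.04 in the control-labelled ones. The NEAT1 to LINC00657 and OIP5-AS1 to LINC00657 ratios were 1.58-fold and 1.43-fold lower in the knockdown-labelled libraries, and each of the other RNAs was lower relative to LINC00657 in every knockdown-labelled library than in any control-labelled one. Without control replicate 2 the difference of the log2 ratio was −0.71 for MALAT1 to LINC00657, against −1.09 with it, and −0.37 for NEAT1 to LINC00657, against −0.66 with it.

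Among the other pairs, the MALAT1 to NEAT1 ratio was 0.918, 1.41 and 1.20 in the knockdown-labelled libraries, against 1.45, 1.77 and 1.48 in the control-labelled ones. The TUG1 to OIP5-AS1 ratio was 3.87, 3.48 and 3.64 in the knockdown-labelled libraries, against 4.20, 4.02 and 5.31 in the control-labelled ones. These 2 pairs did not overlap either, which made 6 of 10 pairs. Of all pairs of the 10290 genes with a mean of at least 10 CPM and no count of 0, 56% did not overlap, so 6 of 10 is near the background. For all 6 the exact two-sided permutation p was 0.1, the smallest possible, and 0.167 after Benjamini-Hochberg adjustment over the 10 pairs, so the design cannot reach 0.05. The pairs share members and so are not independent. Without control replicate 2, 7 of 10 pairs did not overlap, where 76.1% of all pairs did not.

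**Figure D2:**
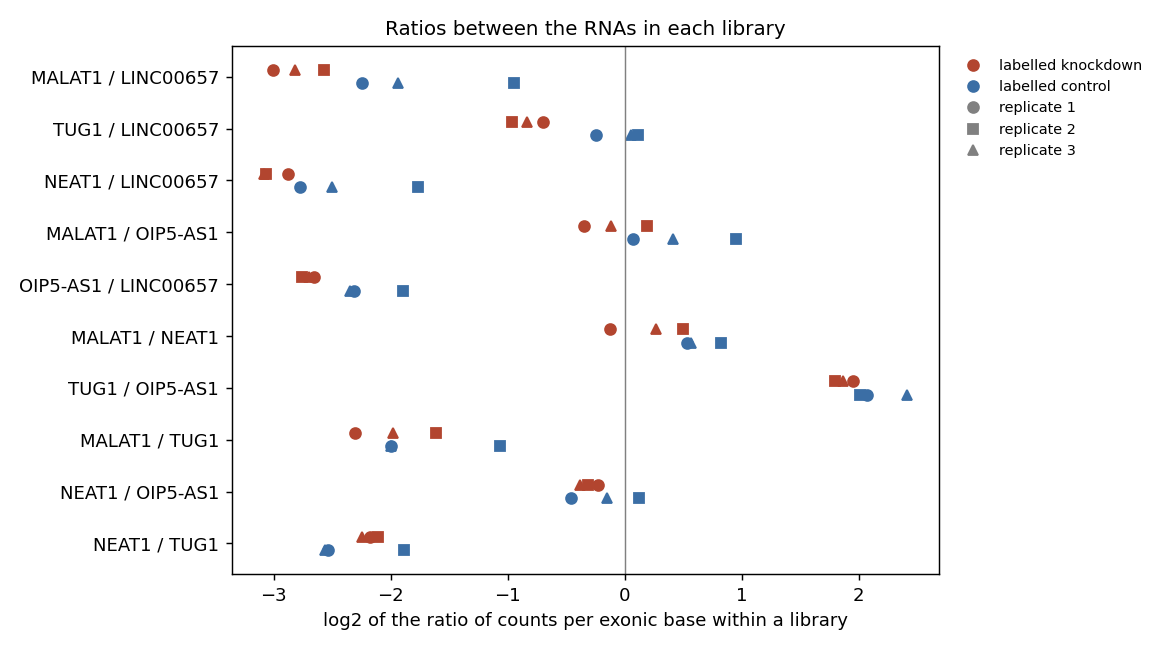
The log2 ratio of each pair of RNAs (horizontal axis, counts per exonic base) in the 3 knockdown-labelled libraries (red, upper) and the 3 control-labelled ones (blue, lower), with replicates as symbols. The 4 ratios to LINC00657 were lower in every knockdown-labelled library, and the MALAT1 to LINC00657 ratio reached 0.519 in control replicate 2.

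All 5 RNAs hold less cytosine than the median tested gene and are longer. The longest transcript of MALAT1 was 16.4% cytosine, at percentile 2.29 of tested genes, and those of LINC00657 (17.4%), OIP5-AS1 (18.4%), NEAT1 (20.4%) and TUG1 (21.6%) were also below the median of 24.0%. Lengths of 5339 to 22743 bases stood against a median of 3212. When smooth trends in base composition and length were removed from each library, LINC00657 was called higher at 0.66 ± 0.11 (adjusted p = 0.0113, edgeR) and TUG1 lower at −0.49 ± 0.088 (adjusted p = 0.0125), which made 2 of 5 where 21.2% of genes were called. MALAT1, with the lowest cytosine content, then stood at −0.37 ± 0.32 (adjusted p = 0.435).

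Removing the trends and control replicate 2 together, an alternative chosen after the data were seen, called 3 of 5, where 48% of genes were called. LINC00657 stood at 0.58 ± 0.054, TUG1 at −0.48 ± 0.061 and OIP5-AS1 at 0.33 ± 0.083 (adjusted p = 4.06e-05, 0.000229 and 0.00922). MALAT1 turned to 0.080 ± 0.12 (adjusted p = 0.596). Without control replicate 2 alone, 3 of 5 were called, where 48.5% of genes were. NEAT1, TUG1 and LINC00657 kept their signs under all 17 alternatives run, and MALAT1 and OIP5-AS1 did not.

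**Figure D3:**
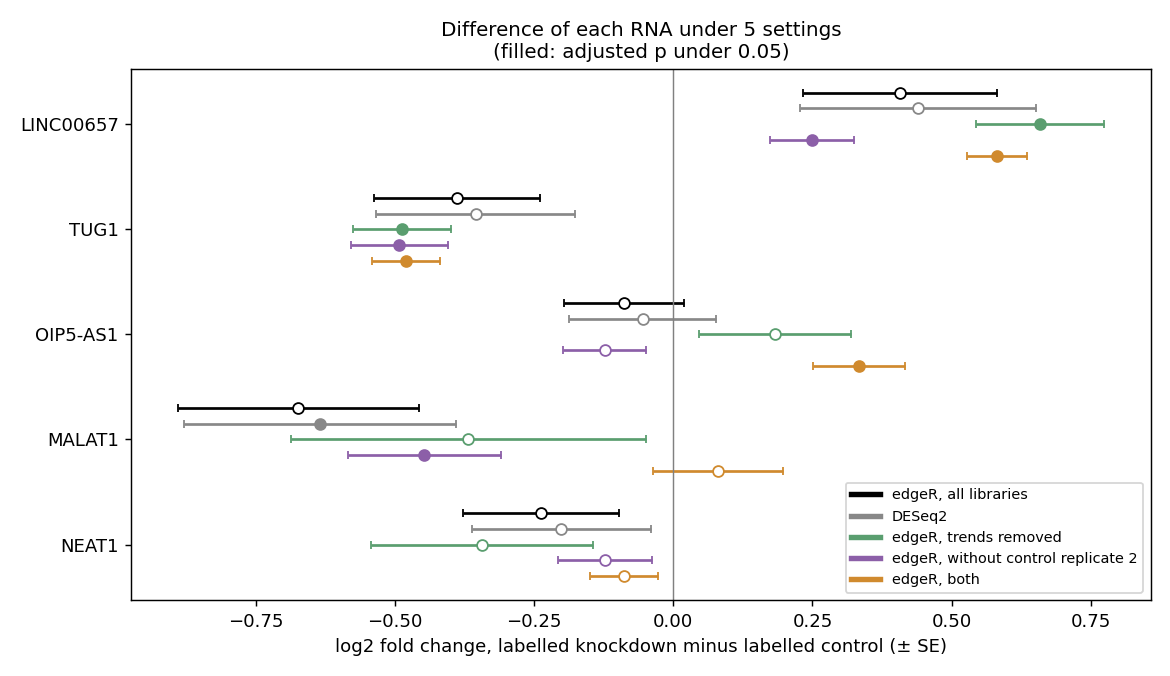
The log2 fold change of each RNA (horizontal axis, knockdown-labelled libraries minus control-labelled libraries, ± SE) under 5 settings, with filled points for an adjusted p under 0.05. TUG1 stayed between −0.49 and −0.35 in the settings drawn, while MALAT1 ran from −0.67 to 0.08.

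MALAT1 and NEAT1 lie side by side on chromosome 11, and of the 4 nearest tested protein-coding genes 3 rose. SLC25A45, a mitochondrial carrier gene (0.94 ± 0.18, adjusted p = 0.0119, edgeR), and FRMD8, of the iRhom complex (0.65 ± 0.18, adjusted p = 0.0362), were among them, and LTBP3, which binds latent TGF-beta, stood at 0.37 ± 0.14 (adjusted p = 0.0873). With trends in base composition and length removed none of these 4 was called. Over the 787 protein-coding genes tested on chromosome 11 the median was 0.31, with 34.2% called. Of these genes 225 were called higher and 44 lower, and the part of the chromosome in the values of MALAT1 and NEAT1 was not tested.

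Around LINC00657 on chromosome 20, none of the 4 neighbours was called. EPB41L1, a membrane skeleton gene, stood at 0.40 ± 0.23 and AAR2, a splicing factor, at 0.24 ± 0.12, SCAND1 at 0.15 ± 0.25 and PHF20, of a histone acetyltransferase complex, at 0.03 ± 0.14. SCAND1 (0.49 ± 0.11, adjusted p = 0.00442) and AAR2 (0.32 ± 0.076, adjusted p = 0.00654) were called higher without control replicate 2. The median of 385 tested protein-coding genes on that chromosome was 0.28, with 26.2% called, and its part in the higher LINC00657 was not tested. Next to TUG1 on chromosome 22, MORC2, which shares its promoter region, stood at 0.20 ± 0.14 (adjusted p = 0.317), OSBP2 at 0.24 ± 0.25 and SMTN, a smooth muscle protein, at −0.01 ± 0.29. SELM, a selenoprotein gene, fell (−0.54 ± 0.16, adjusted p = 0.045), and that chromosome's median was 0.05. Near OIP5-AS1 on chromosome 15, NUSAP1, a spindle protein, fell (−0.58 ± 0.11, adjusted p = 0.0117), CHP1 stood at 0.02 ± 0.14 and INO80, a chromatin remodeller, at 0.32 ± 0.14, with a chromosome median of −0.04. Of all 16 neighbours 3 rose and 2 fell, or 31.2% called against 24% of all genes. Of the 16, 9 were called without control replicate 2, where 48.5% of all genes were, and with trends removed 1 was, SELM, where 21.2% of all genes were.

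The genes whose centred log2 CPM over the 6 libraries lay nearest to each RNA were found among 10285 genes with a mean of at least 10 CPM. For MALAT1, whose nearest genes lay farther away than those of the other RNAs, the kinase genes PRKG1 and CAMK4 and the noncoding AC021224.1 were nearest, at a root mean square difference of 0.0988 to 0.112. For NEAT1 they were FANCI, of the Fanconi pathway, SCYL3 and EFTUD1, at 0.0355 to 0.0417, and for TUG1 they were ZSCAN30, the RNA-binding protein gene IGF2BP2 and GPATCH2L, at 0.0225 to 0.0461. OIP5-AS1 was matched by VPS41, LAMP2 (both of lysosomal traffic) and WSB2, at 0.0191 to 0.0233, and LINC00657 by HIP1R, PYGO2 and DENND6A, at 0.0336 to 0.0365. Between the 5 RNAs themselves the nearest pair was NEAT1 and OIP5-AS1 at 0.189 and the farthest MALAT1 and LINC00657 at 0.682.

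Of 28 tested genes for nuclear speckle proteins, which share MALAT1's compartment, 15 fell and 2 rose, or 60.7% called where 24% of all genes were, with a median of −0.59 against −0.04. DDX39B, among the 15, averaged only 0.285 CPM in knockdown-labelled and 0.666 CPM in control-labelled libraries. PNISR (42.6 ± 2.08 CPM in knockdown-labelled and 279 ± 42.8 CPM in control-labelled libraries, −2.71 ± 0.15), PNN, or pinin (57.0 ± 1.56 CPM in knockdown-labelled and 321 ± 53.5 CPM in control-labelled libraries, −2.50 ± 0.15), and LUC7L3, of the U1 particle (−2.56 ± 0.27), fell, with adjusted p of at most 0.00164. SRRM2, a scaffold of speckles (749.8 ± 59.6 CPM in knockdown-labelled and 435 ± 134 CPM in control-labelled libraries, 0.79 ± 0.23, adjusted p = 0.0498), and RNPS1 (0.53 ± 0.14) rose, and SON, the other scaffold, stood at 0.07 ± 0.32. SON was lowest in control replicate 2, and without that library it was called lower, at −0.23 ± 0.0805 (adjusted p = 0.0394, edgeR). The counts were 20 lower and 2 higher without control replicate 2, where 25.6% and 22.9% of all genes were called lower and higher. They were 10 lower and 0 higher with trends removed, where the background was 11.6% and 9.59%. Leaving out knockdown replicate 1, 2 or 3 left 5, 6 or 5 lower and 0 higher, where 5.12%, 5.43% or 4.96% of all genes were called lower and 1.87%, 1.94% or 1.71% higher.

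Of 32 genes for paraspeckle proteins, the partners of NEAT1, 7 fell and 1 rose, with a median of −0.26 and 25% called, near the 24% of all genes. RBM3, among the 7, averaged only 0.209 CPM in knockdown-labelled and 0.743 CPM in control-labelled libraries. MATR3, or matrin 3 (266 ± 9.85 CPM in knockdown-labelled and 603.5 ± 132.7 CPM in control-labelled libraries, −1.18 ± 0.19, adjusted p = 0.0073), TAF15 (−0.87 ± 0.14) and CPSF6, a 3' processing factor (−0.57 ± 0.11), fell. SFPQ (−0.25 ± 0.23), NONO (−0.17 ± 0.21) and HNRNPK (−0.04 ± 0.16), which are known to be needed for paraspeckles, were not called. The list had 15 lower and 6 higher without control replicate 2, against 25.6% and 22.9% of all genes, and SFPQ was then among the lower at −0.46 ± 0.076. With trends removed it had 3 lower and 2 higher, against 11.6% and 9.59% of all genes, and a median of 0.00032.

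Among 19 tested genes that form 3' ends like those of MALAT1 and NEAT1 or degrade nuclear RNA, 5 fell and 0 rose, with a median of −0.41 and 26.3% called, near the 24% of all genes. ZFC3H1, which links poly(A) nuclear RNA to the exosome (14.0 ± 0.893 CPM in knockdown-labelled and 59.9 ± 4.15 CPM in control-labelled libraries, −2.10 ± 0.13), the exosome helicase SKIV2L2 (−1.79 ± 0.15) and the exosome nuclease DIS3 (−1.80 ± 0.21) fell, with adjusted p of at most 0.00238. RPP30 (−0.58 ± 0.17) and RPP38 (−0.50 ± 0.13), subunits of RNase P, completed the 5. METTL16, which binds the MALAT1 triple helix, stood at 0.42 ± 0.21 (adjusted p = 0.186), and the tRNA 3' nuclease ELAC2 at −0.04 ± 0.11. The counts were 10 lower without control replicate 2 (25.6% of all genes) and 8 lower with trends removed (11.6% of all genes), and 0 higher in both.

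Of 8 genes for LINC00657-binding proteins 25% were called, near the 24% of all genes. The splicing factor PRPF19 rose (0.43 ± 0.11, adjusted p = 0.0356) and the export adaptor ALYREF fell (−0.43 ± 0.12), while PUM2, a PUMILIO protein, stood at −0.22 ± 0.11 (adjusted p = 0.166). The counts were 2 higher and 5 lower without control replicate 2, against 22.9% and 25.6% of all genes. With trends removed they were 2 higher and 0 lower, against 9.59% and 11.6% of all genes. Of 16 microRNA effectors 1 rose, ZSWIM8, a ubiquitin ligase adaptor for target-directed microRNA decay (102 ± 5.71 CPM in knockdown-labelled and 67.6 ± 13.2 CPM in control-labelled libraries, 0.59 ± 0.16, adjusted p = 0.0363), and 0 fell, or 6.25% called against 24% of all genes. The list had 3 higher and 4 lower without control replicate 2, against 22.9% and 25.6% of all genes. The lower were DICER1 (−1.16 ± 0.086), CUL3 (−0.54 ± 0.073), AGO3 (−0.40 ± 0.087) and AGO4 (−0.25 ± 0.085). The higher were AGO2 (0.57 ± 0.18), ZSWIM8 (0.50 ± 0.11) and XPO5 (0.31 ± 0.094). With all libraries DICER1 stood at −0.85 ± 0.32 (adjusted p = 0.0976, edgeR). With trends removed ZSWIM8 stood at 0.11 ± 0.096 and was not called. The list then had 2 higher and 0 lower, against 9.59% and 11.6% of all genes. The 2 were AGO2 (0.64 ± 0.16, adjusted p = 0.0305, edgeR) and TNRC6A (0.43 ± 0.12, adjusted p = 0.0418). Of 11 PRC2 genes, MTF2 (−0.83 ± 0.12), the core subunit SUZ12 (−1.10 ± 0.22) and EED (−0.71 ± 0.21) fell and JARID2 rose (0.62 ± 0.12), or 36.4% called against 24% of all genes. Without control replicate 2 the PRC2 list had 1 higher and 4 lower, against 22.9% and 25.6% of all genes. With trends removed JARID2 alone was called, where 9.59% of all genes were called higher and 11.6% lower.

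Of 29 other named long noncoding RNAs tested, 3 rose and 7 fell, with a median of −0.26, or 34.5% called where 24% of all genes were. MIR17HG, the host of a microRNA cluster, fell to 1.02 ± 0.42 CPM in the knockdown-labelled libraries, against 6.34 ± 0.33 CPM in the control-labelled libraries (−2.63 ± 0.30, adjusted p = 0.00214). The imprinted MEG3 (−3.40 ± 0.47) and DLEU1 (−0.99 ± 0.14) fell, and LINC00665 (62.0 ± 3.67 CPM in knockdown-labelled and 24.65 ± 6.91 CPM in control-labelled libraries, 1.33 ± 0.21), PSMD5-AS1 (1.08 ± 0.17) and the imprinted H19 (2.12 ± 0.44) rose, though MEG3 and H19 averaged under 4 CPM in both groups. The list had 4 higher and 8 lower without control replicate 2, against 22.9% and 25.6% of all genes. With trends removed it had 5 of each, where 9.59% of all genes were called higher and 11.6% lower. Leaving out 1 knockdown-labelled library at a time gave 2 to 3 higher and 3 to 4 lower here, 1 to 2 lower paraspeckle genes, 3 lower decay genes, 1 lower PRC2 gene and 0 called LINC00657 partners or microRNA effectors. In those settings 1.71% to 1.94% of all genes were called higher and 4.96% to 5.43% lower. The antisense PSMD5-AS1 is uncertain, since how strand entered the counting is unknown. Over all 2293 tested long noncoding genes 15.4% were called, with a median of −0.01. Of the 26 with a mean of at least 50 CPM, the 5 RNAs included, 2 fell and 0 rose, or 7.69% called, with a median of −0.57.

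**Figure D4:**
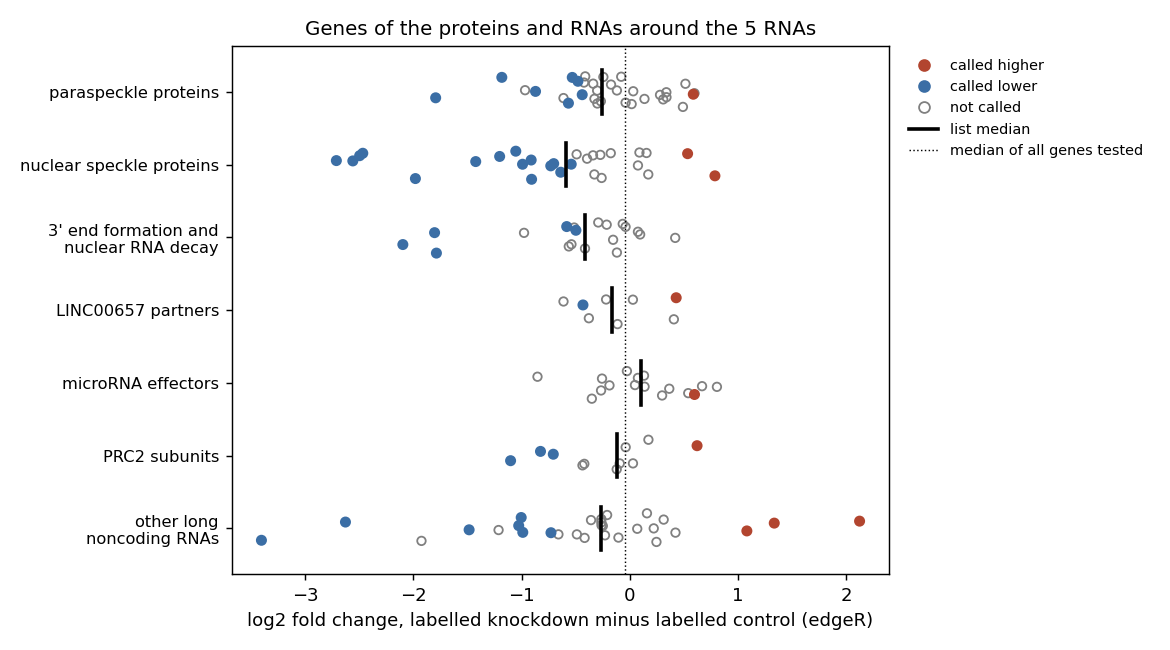
The log2 fold change (horizontal axis, edgeR) of each tested gene in 7 lists, with genes called higher in red, lower in blue and not called as open circles, and with each list's median as a bar. The nuclear speckle list, with a median of −0.59, lay farthest from the dotted median of all genes at −0.04.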

How the data were processed

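RNA of HEK293 cells freed of ribosomal RNA was measured in 6 libraries, 3 per label. The deposited table held raw read counts per gene and RPKM computed by the authors, which equalled count over exonic length and library total within 0.006 for 100% of values. Per the submitters' processing notes, the build was hg19 and the tools, with no role stated, included HTSeq 0.6.1, edgeR 3.4.6, DESeq 1.18.0, DESeq2 1.6.3 and bcl2fastq 2.17.1.14. The aligner, annotation and strand setting are not given in the sources used here, nor is whether the table came from bisulfite-treated libraries. Columns were tied to samples by the second name in each description.

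Counts were tested with edgeR 4.0.16 (R 4.3.3): quasi-likelihood F test, TMM, filterByExpr, robust fit, Benjamini-Hochberg over 17805 genes, threshold 0.05. Fold changes are log2, libraries labelled knockdown minus labelled control, ± SE. CPM are TMM-scaled, mean ± SD over 3 libraries. Alternatives were DESeq2 1.42.0, limma-trend 3.58.1 on log2(RPKM + 1), other scalings and filters, a replicate block, leaving out each library, and per-library smooth trends in base composition and length (mgcv 1.9.3, GENCODE 29, 97.2% of genes matched) removed as offsets. The fit and the trend removal were tested on simulated data. No 2 libraries agreed within sampling noise, by a chi-square test of their counts.

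The members, lists and alternatives were chosen with earlier results of these data known. Named genes were the 5 RNAs, TRDMT1, the 2 nearest tested protein-coding genes on each side, up to 3 called list members per direction with the smallest p, and the 3 genes most like each RNA by root mean square difference of centred log2 CPM (prior count 2). Uncalled list members were named after their values were seen. Gene symbols are those of the deposited table, and coordinates of sequences are GRCh38, not the authors' build. Some genes that the rule names are not reported here.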

Additional observations from a re-analysis of the deposited data

How the results depend on the processing

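NEAT1 kept its sign and stayed uncalled under all 17 alternatives, and TUG1 and LINC00657 kept their signs. MALAT1 was called by DESeq2 (−0.63) and turned to 0.080 without control replicate 2 and with trends removed. TUG1 was called with trends removed (−0.49), and with control replicate 2 also left out (−0.48). LINC00657 was called with trends removed (0.66) and with control replicate 2 also left out (0.58). OIP5-AS1 turned to 0.0764 with the plain library total, 0.079 on log2(RPKM + 1), 0.18 with trends removed and 0.33 with control replicate 2 also left out. TRDMT1 was called with the plain total (0.80), by DESeq2 (0.65), on log2(RPKM + 1) (0.25) and at 1.27 with trends and control replicate 2 removed. Without control replicate 2 alone TRDMT1 was called at 0.79 ± 0.15 (adjusted p = 0.00249, edgeR). The cause of these changes was not tested.

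Leaving out 1 library at a time gave −0.82 to −0.45 for MALAT1, −0.29 to −0.12 for NEAT1, −0.49 to −0.27 for TUG1, −0.12 to 0.0017 for OIP5-AS1, 0.25 to 0.56 for LINC00657, 0.45 to 0.79 for TRDMT1 and 1191 to 9063 called genes. Against 4267 with all libraries, the count was 9063 without control replicate 2, 1191 to 1315 without any 1 knockdown-labelled library and 2044 without control replicate 1. With trends and control replicate 2 removed 8718 genes were called. The MALAT1 to TUG1 ratio, −0.28 on the log2 scale, ran from −0.46 to 0.032, the value without control replicate 2.

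Deviations of same-numbered libraries correlated at −0.0397, 0.0571 and 0.00102, and knockdown replicate 1 correlated best with control replicate 3. With 3 libraries per group and control replicate 2 apart, these values cannot tell whether replicate numbers pair the libraries. With the replicate block 2976 genes were called, MALAT1 among them (−0.66), and with the block and trends removed 1922, where LINC00657 was called at 0.67, OIP5-AS1 stood at 0.20 and TUG1 was not called (−0.49, adjusted p = 0.0567). Counting error was at most 2.34% for the 5 RNAs, so the spread between libraries, not depth, limits these values.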
